A study of Mus musculus with 16 samples.

Results

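The genes that carry proteins into mitochondria, fold them there and remove damaged ones were followed in whole kidney of mice with and without PGC-1α in the renal tubule. The set was chosen by name: every gene symbol of the array annotation that starts with Timm or Tomm, plus named genes of the sorting machinery, chaperones, prohibitins and proteases. The rule selects 43 symbols, and 39 of them were measured by a probe set with a single gene symbol, out of 22180 genes measured in that way. Tomm5, Tomm6, Tomm6os and Phb have probe sets that carry several symbols and are not described further. NiPKO is a nephron-specific inducible knockout: Pax8-rtTA and tetO-cre (LC1) transgenes drive Cre, after doxycycline, in mice with floxed PGC-1α alleles. The deletion covers the whole tubule and spares the glomerulus. The paper reports recombination in kidney and also in liver, where Pax8 is weakly active. It reports PGC-1α mRNA as strongly reduced in kidney and not significantly reduced in liver. The floxed line was on C57BL/6 and both transgenes were on a mixed background, so littermates served as controls (CTRL), and all mice were male. The sources do not state which of these alleles the CTRL mice carry or whether they also received doxycycline. Doxycycline was given at 0.2 mg/ml in drinking water for 2 weeks from 12 weeks of age, and the diets followed for 20 weeks. The 4 groups were NiPKO on chow (10 kcal% as fat), CTRL on chow, NiPKO on the high-fat diet (HFD, with 60 kcal% as fat) and CTRL on HFD, with 4 Affymetrix Mouse Gene 2.0 ST arrays in each. The labels name biological replicates but do not link a sample to an animal, so a p-value here measures only how these samples spread.

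Nearly all mitochondrial proteins are encoded in the nucleus and made in the cytosol. They enter through the TOM complex of the outer membrane, and are then passed to the SAM complex for barrel-shaped outer membrane proteins, to the TIM23 complex and its import motor for proteins with a cleavable presequence, or to small TIM chaperones and the TIM22 complex for carriers of the inner membrane. Chaperones fold what arrives, and proteases of the matrix and inner membrane degrade what is damaged or in excess. PGC-1α is a transcriptional coactivator known for raising nuclear genes of mitochondria together with factors such as the oestrogen-related receptors, NRF1, GABP and YY1, and the kidney tubule is rich in mitochondria.

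All values are normalized log2 expression as deposited, so a difference of 1 is a doubling. Levels of different genes cannot be set against each other, because each comes from its own probe set. The median of an array was 5.35 to 5.40, and any pair of arrays correlated at 0.986 to 0.992 over the probe sets. The tissue was kidney by its markers: all 5 proximal tubule genes averaged between 11.1 and 13.1. The mean of these 5 genes was 12.15 to 12.33 in chow NiPKO, 12.09 to 12.28 in chow CTRL, 12.15 to 12.27 in HFD NiPKO and 12.13 to 12.20 in HFD CTRL, so these groups overlapped. The mean of the adipocyte markers stood apart in 1 group, although each marker alone overlapped between HFD NiPKO and HFD CTRL. The mean of the 5 measured ones (Adipoq, Plin1, Fabp4, Lep and Ucp1) was 6.03 to 7.0 in HFD NiPKO and 5.72 to 6.0 in HFD CTRL, while it was 5.66 to 5.78 in chow NiPKO and 5.68 to 5.78 in chow CTRL. HFD NiPKO replicate 1 had the value of 7.0. Its Ucp1, the uncoupling protein of brown fat, was at 7.96 against 4.66 to 4.88 in the other HFD NiPKO arrays. The HFD median, the calls on HFD and the HFD difference of Samm50 are therefore also given without this array. The HFD differences of other genes are given only with it. None of the 5 adipocyte genes passed the test in either genotype comparison, and only 1 of them averaged above 5.94, the median of all genes.

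On these arrays the targeted gene went against its label, whereas the paper reports its mRNA as strongly reduced in NiPKO kidney by real-time PCR. Ppargc1a, which encodes PGC-1α, read 9.91, 10.18, 10.05 and 10.09 in chow NiPKO, against 9.68, 9.59, 9.56 and 9.60 in chow CTRL. On HFD it read 9.96, 9.96, 10.07 and 9.96 in NiPKO, against 9.57, 9.52, 9.45 and 9.32 in CTRL. The probe set was thus higher in NiPKO on both diets, by 0.45 on chow and 0.52 on HFD, with an adjusted p of 0.00258 and 0.00132. The exons that this probe set reads were not analysed here, and probes outside the floxed exons check nothing, so NiPKO and CTRL stand throughout for the samples labelled in that way.

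On chow, the set was lower in NiPKO kidney than in CTRL kidney, with calls in the proteases, the SAM complex and the TIM23 complex. Of the 39 genes, 29 were below CTRL and 10 above, where 47.4% of all genes were below. Afg3l2, Samm50 and Timm23 fell at a Benjamini-Hochberg adjusted p under 0.05 over all genes (limma), a call that 0.974% of all genes reached in this direction. No member rose at that threshold, which 0.302% of all genes did. The arrays of the groups did not overlap for 15 members lower in NiPKO (4.15% of all genes) and 1 higher (3.29%). The study's own array thresholds, a fold change over 1.2 at an unadjusted p under 0.05, were applied here to the p-values of limma. By them 3 members were lower (2.09% of all genes) and 1 was higher (2.33%). At an unadjusted p under 0.05 alone, 16 were lower (6.53%) and 1 was higher (5.95%). The median difference of the members was -0.10, against 0.01 over all genes. In bulk tissue, fewer cells of a type and less RNA per cell cannot be told apart.

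On HFD the members again lay lower in NiPKO, with group means from arrays other than those of the chow means. All 4 groups share an estimate of spread in the fit, so the p-values of the diets are not independent. There 31 of the 39 were below CTRL, where 49.4% of all genes were. Afg3l2 and Samm50 fell at an adjusted p under 0.05 (0.595% of all genes were lower by that rule), and no member rose (0.23%). The arrays did not overlap for 9 members lower in NiPKO (3.38% of all genes) and for none higher (3.5%). By the study's thresholds Afg3l2 and Timm9 were lower (1.79%) and none was higher (1.93%). At an unadjusted p under 0.05, 10 were lower (5.26%) and none was higher (5.55%). The median difference was -0.07, against 0.00 over all genes. Without HFD NiPKO replicate 1, the array with the high Ucp1, the median was also -0.07 and 1 member, Afg3l2, was called. Both diets gave the same sign for 31 members, with 26 below CTRL on both (24.7% of all genes) and 5 above on both, and 8 members had opposite signs. For 8 members the NiPKO arrays were below the CTRL arrays without overlap on both diets (1.23% of all genes): Afg3l2, Samm50, Timm23, Mtx2, Oma1, Tomm40, Phb2 and Lonp1.

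**Figure D1:**
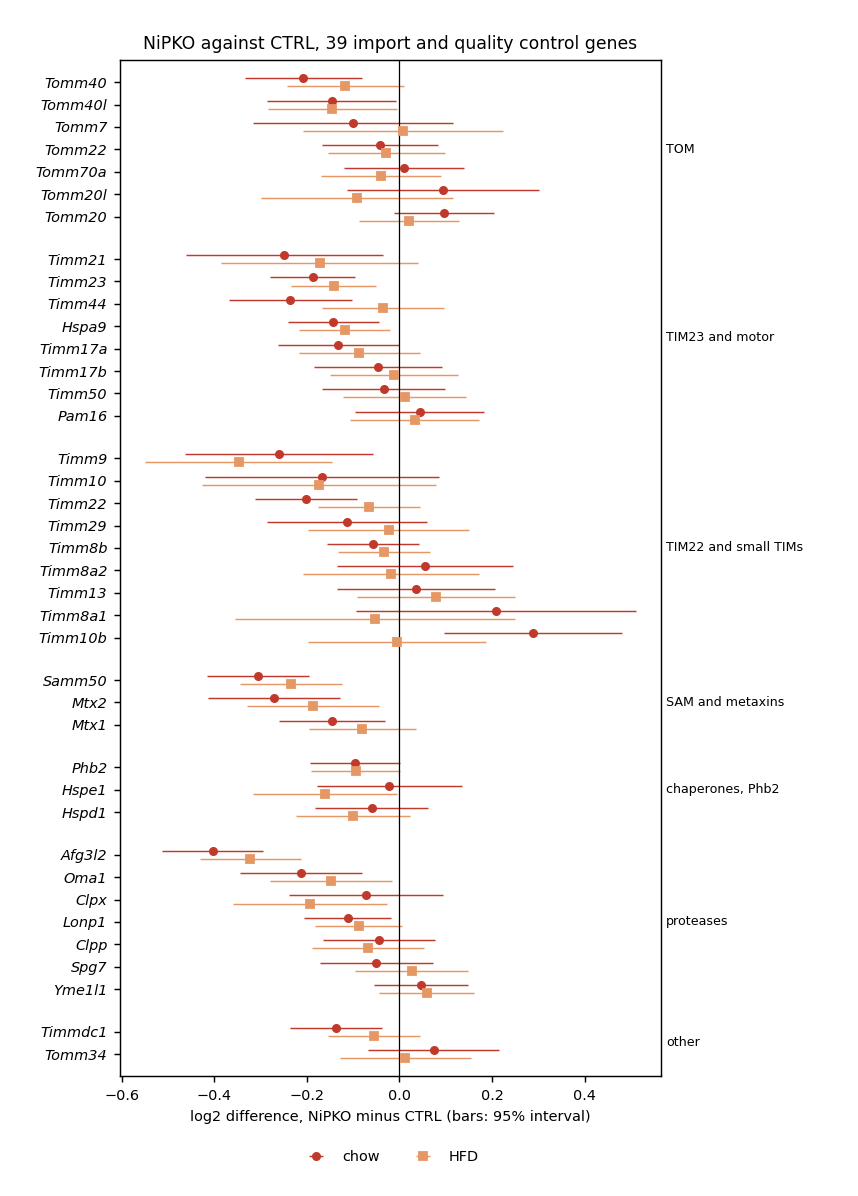
Log2 difference of NiPKO minus CTRL for each of the 39 genes, grouped by role, on chow (circles) and HFD (squares), with 95% intervals from limma. Afg3l2, at -0.40 on chow and -0.32 on HFD, lies farthest below 0 on chow, and 29 of the 39 genes on chow and 31 on HFD are below 0.

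The members were also read against all genes above the median probe set value, without closer matching of level. Of the 39 members, 35 averaged over 5.94, which is the median value of all genes. On chow 28 of these 35 were below CTRL, where 57.0% of all genes above that value were. On HFD it was 27 of 35, where 39.3% were.

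The genotype difference averaged over both diets uses all 16 arrays and is not independent of the 2 comparisons it averages. By this measure 7 members fell at an adjusted p under 0.05 (1.83% of all genes were lower by that rule) and none rose (0.852%). They were Afg3l2, Samm50, Timm23, Mtx2, Timm9, Oma1 and Hspa9. In all, 30 members were below CTRL (46.9% of all genes), with a median of -0.09 against 0.01 over all genes. At an unadjusted p under 0.05, 18 were lower (6.79%) and 1 was higher (6.74%). By the study's thresholds, 3 were lower (1.22%) and none was higher (1.2%). The 7 genes are described next by their role, with the value of each array.

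The largest of these differences was in a protease. Afg3l2 encodes a subunit of the m-AAA protease, an ATP-dependent enzyme of the inner membrane that faces the matrix, removes misfolded membrane proteins and matures a ribosomal protein. On chow it read 8.91, 8.89, 8.94 and 8.91 in NiPKO, against 9.32, 9.41, 9.23 and 9.30 in CTRL. Its HFD values were 8.93, 8.95, 8.93 and 9.06 in NiPKO, against 9.28, 9.24, 9.31 and 9.33 in CTRL. Every NiPKO array was below every CTRL array, on either diet and across them. The difference was -0.40 on chow (SE 0.05, 1.32-fold lower, adjusted p = 0.000728) and -0.32 on HFD (SE 0.05, 1.25-fold lower, adjusted p = 0.00755). It averaged -0.36 over both diets, with an adjusted p of 2.84e-05. Leaving out any single array kept the call in all 16 fits of each comparison, and the highest adjusted p among them was 0.0342. The HFD call was lost when only the arrays of both HFD groups were fitted. It was also lost in the methods' t-test, here adjusted over all genes, whereas the study's thresholds use unadjusted p-values.

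Afg3l2 can form the m-AAA protease alone or with Spg7, paraplegin, the product of a gene mutated in hereditary spastic paraplegia. Spg7 differed by -0.05 on chow (95% interval -0.17 to 0.07) and by 0.03 on HFD (-0.10 to 0.15). Yme1l1, the i-AAA protease that faces the space between the membranes, differed by 0.05 on chow (-0.06 to 0.15) and 0.06 on HFD (-0.04 to 0.16). Neither interval reaches the difference seen for Afg3l2.

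Oma1 encodes an inner membrane metalloprotease that is activated by stress and cleaves the fusion protein Opa1. On chow it read 7.75, 7.60, 7.50 and 7.65 in NiPKO, against 7.76, 7.86, 7.88 and 7.84 in CTRL. The HFD arrays gave 7.77, 7.77, 7.82 and 7.73 in NiPKO, against 7.88, 7.83, 7.91 and 8.07 in CTRL. The groups did not overlap on either diet, although the nearest arrays were 7.75 and 7.76 on chow and 7.82 and 7.83 on HFD. The difference was -0.21 on chow (SE 0.06, adjusted p = 0.126) and -0.15 on HFD (SE 0.06, adjusted p = 0.388), and averaged -0.18 (SE 0.04, adjusted p = 0.0357). The averaged call was kept in 5 of the 16 fits that leave out an array. Of the matrix proteases, Lonp1 differed by -0.11 on chow and -0.09 on HFD without overlap of the groups on either, and its averaged adjusted p was 0.123. Clpx, the unfoldase that feeds the Clpp peptidase, differed by -0.07 on chow and -0.19 on HFD, and Clpp by -0.04 and -0.07, with overlapping groups for both.

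In the sorting machinery of the outer membrane, 1 of 3 members fell on each diet, Samm50, and 2 of 3 fell over both, Samm50 and Mtx2. Of all genes, 0.974% fell by that rule on chow, 0.595% on HFD and 1.83% over both. Samm50 encodes the core of the SAM complex, which inserts barrel-shaped proteins such as porins and Tomm40 into the membrane. On chow it read 10.37, 10.29, 10.34 and 10.35 in NiPKO, against 10.70, 10.63, 10.61 and 10.64 in CTRL. On HFD it read 10.30, 10.48, 10.41 and 10.28 in NiPKO, against 10.58, 10.59, 10.61 and 10.62 in CTRL. No NiPKO array reached the level of any CTRL array. The difference was -0.31 on chow (SE 0.05, 1.24-fold lower, adjusted p = 0.00643), -0.23 on HFD (SE 0.05, 1.18-fold lower, adjusted p = 0.0451) and -0.27 over both (adjusted p = 0.000423). The chow and the averaged calls were kept in all 16 fits that leave out an array. The HFD call was kept in 1 of 16, that without HFD NiPKO replicate 2 (adjusted p = 0.0306), and without HFD NiPKO replicate 1 the difference was -0.21 with an adjusted p of 0.151. It was also lost with median centring, the 2 HFD groups alone, the methods' t-test and the replicate number as a block, and the chow call with the 2 chow groups alone.

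Mtx2, metaxin 2, is a partner of Samm50 on the cytosolic face. On chow it read 9.37, 9.15, 9.23 and 9.31 in NiPKO, against 9.52, 9.53, 9.48 and 9.61 in CTRL. The HFD arrays gave 9.33, 9.11, 9.39 and 9.31 in NiPKO, against 9.41, 9.51, 9.55 and 9.41 in CTRL. The groups were apart on chow and close but apart on HFD. The difference was -0.27 on chow (SE 0.07, adjusted p = 0.0635) and -0.19 on HFD (SE 0.07, adjusted p = 0.288), so neither diet passed alone. The average of -0.23 did (SE 0.05, adjusted p = 0.0127), in all 16 fits that leave out an array. Mtx1, the other metaxin among the members, differed by -0.15 on chow without overlap and by -0.08 on HFD with overlap. Its averaged adjusted p was 0.163.

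In the TIM23 complex and its motor, 7 of 8 members were below CTRL on chow (47.4% of all genes) and 6 of 8 on HFD (49.4%). Timm23 encodes the channel that presequence proteins cross. On chow it read 10.72, 10.68, 10.69 and 10.71 in NiPKO, against 10.91, 10.89, 10.84 and 10.90 in CTRL. Its HFD values were 10.72, 10.79, 10.70 and 10.76 in NiPKO, against 10.93, 10.88, 10.89 and 10.86 in CTRL. All 8 NiPKO arrays were below all 8 CTRL arrays. The difference was small and even: -0.19 on chow (SE 0.04, adjusted p = 0.0445), -0.14 on HFD (SE 0.04, adjusted p = 0.189) and -0.17 over both (SE 0.03, adjusted p = 0.00536). The averaged call was kept in all 16 fits that leave out an array. The chow call was kept in 1 of 16, that without HFD NiPKO replicate 2, at an adjusted p of 0.0497, and it was lost with quantile normalization, the 2 chow groups alone and the replicate number as a block.

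Hspa9, mortalin, is the mitochondrial Hsp70 that pulls precursors into the matrix and helps fold them. On chow it read 11.14, 11.19, 11.19 and 11.20 in NiPKO, against 11.36, 11.32, 11.28 and 11.33 in CTRL. On HFD it read 11.17, 11.22, 11.17 and 11.27 in NiPKO, against 11.36, 11.36, 11.32 and 11.26 in CTRL. The groups were apart on chow, and on HFD NiPKO replicate 4 lay just above CTRL replicate 4. The difference was -0.14 on chow (SE 0.05, adjusted p = 0.182) and -0.12 on HFD (SE 0.05, adjusted p = 0.337), and averaged -0.13 (SE 0.03, adjusted p = 0.0429), a call kept in 3 of the 16 fits that leave out an array.

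The rest of the TIM23 complex was uneven. Timm44, which tethers Hspa9 to the channel, differed by -0.24 on chow (adjusted p = 0.0832) without overlap and by -0.04 on HFD with overlap. Timm21, which links the translocase to the TOM complex, differed by -0.25 on chow and -0.17 on HFD, with overlapping groups on both and an averaged adjusted p of 0.157. Timm17a, a partner of Timm23 in the channel, differed by -0.13 and -0.09, while its paralogue Timm17b differed by -0.05 and -0.01. The presequence receptor Timm50 (-0.03 on chow, 0.01 on HFD) and the motor regulator Pam16 (0.04 and 0.03) stood near 0.

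In the carrier route, 1 of 9 members fell over both diets, the small TIM chaperone Timm9 (1.83% of all genes fell). None fell on either diet alone (0.974% of all genes on chow and 0.595% on HFD). Timm9 and Timm10 form the ring that escorts carrier precursors through the space between the membranes. On chow Timm9 read 7.24, 7.21, 7.40 and 7.25 in NiPKO, against 7.42, 7.50, 7.53 and 7.69 in CTRL. Its HFD values were 7.19, 7.03, 6.72 and 6.94 in NiPKO, against 7.16, 7.32, 7.27 and 7.51 in CTRL. The groups were apart on chow, and on HFD NiPKO replicate 1 lay above CTRL replicate 1. The difference was -0.26 on chow (SE 0.10, adjusted p = 0.244), -0.35 on HFD (SE 0.10, adjusted p = 0.131) and -0.30 over both (SE 0.07, adjusted p = 0.0201). The averaged call was kept in all 16 fits that leave out an array. Its partner Timm10 differed by -0.17 on both diets with an SE of 0.12, and the groups overlapped on both. Timm22, the channel that inserts the carriers, differed by -0.20 on chow (adjusted p = 0.0731) without overlap and by -0.07 on HFD with overlap, and its averaged adjusted p was 0.0672. Timm29, another TIM22 subunit, differed by -0.11 on chow and -0.02 on HFD.

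**Figure D2:**
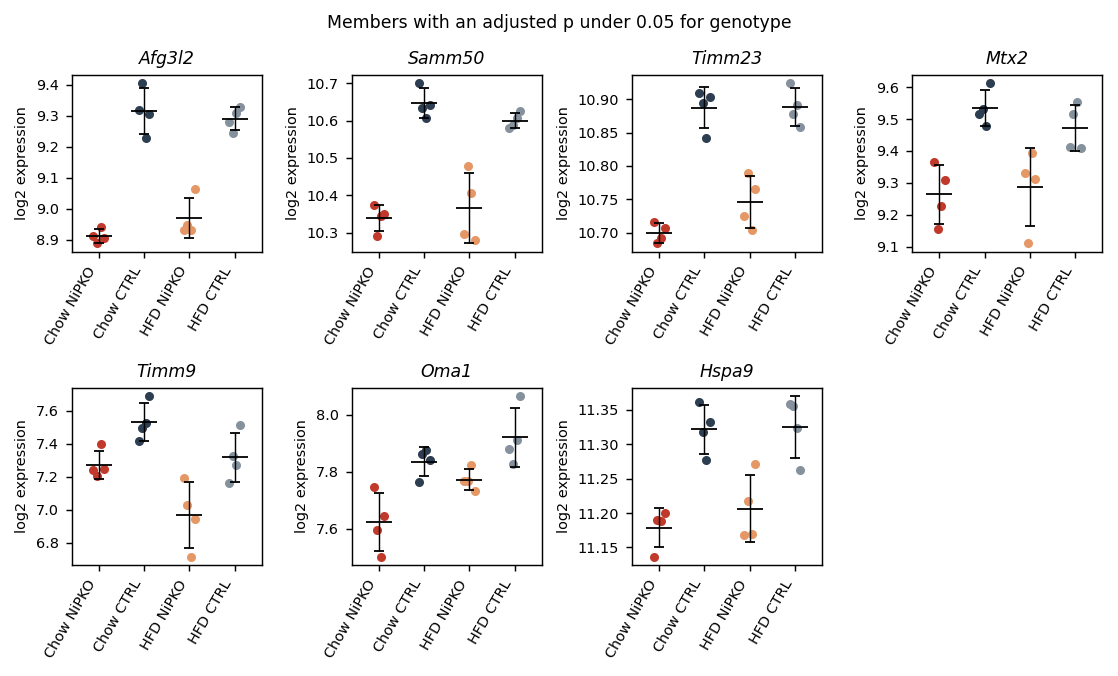
Log2 expression of the 7 genes with an adjusted p under 0.05 for the genotype difference over both diets, 1 point for each array, with the group mean and SD (n = 4 arrays). Each panel has its own axis, which does not start at 0. In Afg3l2, Samm50, Timm23 and Mtx2 the NiPKO arrays lie below the CTRL arrays of the same diet, while in Timm9 and Hspa9 the groups overlap on HFD.

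The other small TIMs did not pass in either genotype comparison, and their signs were mixed on chow. Timm10b, which sits at the TIM22 complex, was the member with the highest difference on chow: 7.19, 7.43, 7.32 and 7.26 in NiPKO, against 7.12, 7.02, 7.03 and 6.89 in CTRL. The groups did not overlap, and the difference of 0.29 had an adjusted p of 0.166. On HFD it was -0.01, and a second Timm10b probe set gave -0.05 on chow and -0.06 on HFD, so the probe sets of this gene disagree. The 3 probe sets of Timm8a1 also disagree, at 0.21, -0.29 and -0.14 on chow. Timm13 differed by 0.04 on chow and 0.08 on HFD, Timm8a2 by 0.06 and -0.02, and Timm8b by -0.06 and -0.03, each with overlapping groups.

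At the entry gate none of the 7 TOM members passed. Tomm40, the pore, read 7.75, 7.74, 7.74 and 7.75 in chow NiPKO, against 7.88, 8.04, 8.08 and 7.81 in chow CTRL. The HFD arrays gave 7.80, 7.88, 7.76 and 7.75 in NiPKO, against 7.91, 7.88, 7.95 and 7.90 in CTRL. The groups were apart on both diets, narrowly on HFD. The difference was -0.21 on chow and -0.12 on HFD, and the average of -0.16 (SE 0.04) had an adjusted p of 0.0503. Its paralogue Tomm40l differed by -0.15 on chow and -0.14 on HFD with overlapping groups. The receptors were near 0: over both diets Tomm20, which binds presequences, differed by 0.06 (95% interval -0.02 to 0.13), Tomm22 by -0.04 (-0.12 to 0.05) and Tomm70a, which binds carrier precursors, by -0.02 (-0.11 to 0.08). For these receptors, a fall as large as that of Samm50 lies outside the interval. Tomm7 and Tomm20l differed by -0.05 and 0.00 over both diets, with wider intervals of -0.20 to 0.11 and -0.15 to 0.15.

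The chaperonin and the prohibitin were lower by small amounts that did not pass. Hspd1 and Hspe1 encode Hsp60 and Hsp10, the barrel and the lid of the matrix folding chamber. Hspd1 differed by -0.06 on chow and -0.10 on HFD, and Hspe1 by -0.02 and -0.16, with groups apart only for Hspe1 on HFD. Phb2, a scaffold of ring complexes in the inner membrane, differed by -0.10 on chow and -0.09 on HFD without overlap on either, and its averaged adjusted p was 0.16. Of the 2 symbols that the name rule brought in from outside import, Timmdc1, an assembly factor of complex I, differed by -0.14 on chow and -0.06 on HFD. Tomm34, a cytosolic cochaperone, differed by 0.07 and 0.01.

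Over the 39 genes the arrays of each diet separated by genotype. For each array, the deviation of every member from its own mean over the 16 arrays was averaged. This mean was -0.03 ± 0.01 in chow NiPKO and 0.06 ± 0.01 in chow CTRL, and -0.06 ± 0.03 in HFD NiPKO and 0.02 ± 0.01 in HFD CTRL (SD, n = 4 each). The highest NiPKO array was at -0.02 and the lowest CTRL array at 0.01. As the members were chosen with earlier results of these data known, no test is given for this mean.

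**Figure D3:**
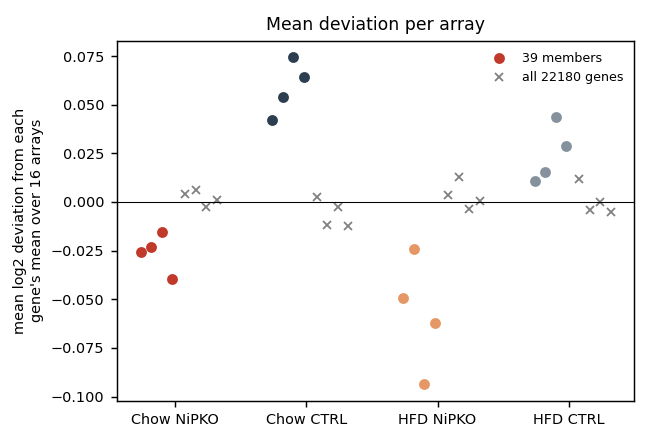
Mean log2 deviation of the 39 members on each array from each gene's mean over the 16 arrays (coloured points), beside the same mean over all 22180 genes (grey crosses). The NiPKO arrays lie at -0.02 or lower and the CTRL arrays at 0.01 or higher, and points are spread sideways only to keep them apart.

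Diet was tested next, first in each genotype and then as an interaction. No member passed an adjusted p under 0.05 for HFD against chow in NiPKO kidney (0.135% of all genes were lower and 0.126% higher by that rule). None passed in CTRL kidney either (0.388% lower, 0.176% higher). In NiPKO, 3 members were lower on HFD at an unadjusted p under 0.05 (5.64% of all genes) and 1 was higher (7.73%). In CTRL, 5 were lower (6.44%) and none was higher (6.65%). By the study's thresholds, 2 members were lower on HFD in NiPKO (2.21%), Timm9 and Timm8a1, and none in CTRL (2.34%). No member was higher by those thresholds in NiPKO (2.26%) or in CTRL (2.3%). Timm8a1 averaged 5.70, under the median value of all genes. Its chow NiPKO replicate 2 read 6.35, against 5.66 to 5.95 in the other chow NiPKO arrays. The methods' t-test with adjustment over all genes called no member in either genotype, and none of the 22180 genes. On HFD 22 of the 39 members were below chow in NiPKO (49% of all genes) and 26 in CTRL (46.7%). The arrays did not overlap for 3 members lower on HFD in NiPKO (Timm9, Spg7 and Lonp1, 3.21% of all genes) and for 2 in CTRL (Timm22 and Lonp1, 3.83%), and for no member higher in NiPKO (5.03%) or in CTRL (3.3%).

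Timm9 was the member nearest to a diet call in NiPKO. Its 4 HFD NiPKO arrays, at 6.72 to 7.19, lay below the 4 chow NiPKO arrays, at 7.21 to 7.40. The difference was -0.30 (SE 0.10, adjusted p = 0.171), and in CTRL it was -0.22 (SE 0.10, adjusted p = 0.348) with overlap. Oma1 had the highest diet difference in NiPKO, 0.15 (SE 0.06, adjusted p = 0.302). In CTRL the nearest was Spg7, at -0.17 (SE 0.06, adjusted p = 0.205). Afg3l2, which carried the largest genotype difference on chow, differed between the diets by 0.06 in NiPKO and -0.02 in CTRL.

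**Figure D4:**
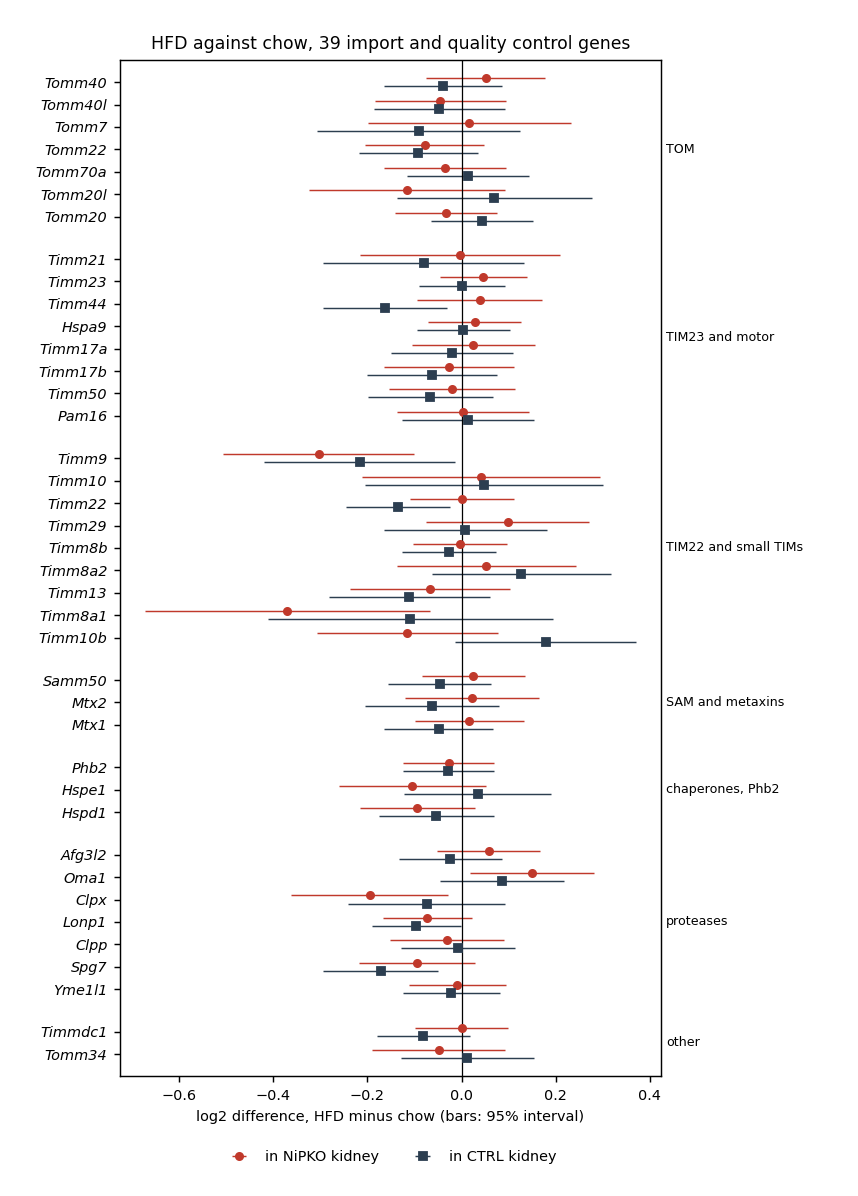
Log2 difference of HFD minus chow for each of the 39 genes, grouped by role, in NiPKO kidney (circles) and CTRL kidney (squares), with 95% intervals from limma. Differences lie on both sides of 0, from -0.37 (Timm8a1) to 0.15 (Oma1) in NiPKO and from -0.22 (Timm9) to 0.18 (Timm10b) in CTRL, and none passed an adjusted p under 0.05.

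Whether the genotype difference depended on diet was tested as the interaction, the HFD difference minus the chow difference. The interaction was below 0 for 14 of 39 members (49.1% of all genes), and for 23 after quantile normalization. Among the 35 members above the median value of all genes it was below 0 for 10, where 33.6% of all genes above that value were. In limma no member passed, nor did any of the 22180 genes (0% at an adjusted p under 0.05, in either direction). At an unadjusted p under 0.05 there were 2 members: Timm10b at -0.29 (4.6% of all genes were lower by that rule) and Timm44 at 0.20 (3.64% higher). Their adjusted p was 0.575 and 0.576. By the study's thresholds Timm10b alone was called (3.71% lower) and no member was higher (2.04%). For Timm23, the member called on chow and not on HFD, the interaction was 0.05 (95% interval -0.09 to 0.18, adjusted p = 0.873), so its genotype difference was not shown to differ between the diets. For Afg3l2 the interaction was 0.08 and for Samm50 it was 0.07.

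Genes that work beside the set were described from 5 further lists written from general knowledge, with earlier results of these data known. The MICOS complex shapes the cristae and contacts the SAM complex. All 7 of its measured genes were below CTRL on chow (47.4% of all genes) and 5 of 7 on HFD (49.4%). Their medians were -0.24 on chow and -0.18 on HFD. At an adjusted p under 0.05, 3 MICOS genes fell on chow (0.974% of all genes), 1 on HFD (0.595%) and 4 over both diets (1.83%). Immt, the mitofilin core subunit, differed by -0.26 on chow (adjusted p = 0.0148) and -0.18 on HFD (0.116). Chchd3 differed by -0.24 (0.0355) and -0.25 (0.036), Micos13 by -0.27 (0.0327) and -0.25 (0.0669), and Apoo by -0.37 (0.0823) and -0.36 (0.124).

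The porins, which the SAM complex inserts, did not move as 1 group. Vdac2 differed by -0.30 on chow (adjusted p = 0.0124) and -0.19 on HFD (0.195), and Vdac3 by -0.16 and -0.11, with an averaged adjusted p of 0.0386. Vdac1 differed by 0.01 and -0.03, with an averaged adjusted p of 0.942. Another list held 16 import genes, mostly of the motor, presequence processing and the disulfide relay, with a few of other routes. None of these passed on either diet and 2 fell over both (1.83% of all genes). They were Dnajc15, a motor cochaperone (-0.23, adjusted p = 0.0153), and Pmpcb, a subunit of the peptidase that removes presequences (-0.15, 0.0445). In the same list Mipep, an intermediate peptidase, averaged -0.16 (0.0636), and Chchd4, the oxidoreductase of the relay, averaged -0.19 (0.0759).

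A further list held 14 genes, mostly other proteases and chaperones of mitochondria. Of these, 1 fell on chow (0.974% of all genes), none on HFD (0.595%) and 2 over both diets (1.83%). The gene called on chow was Ghitm, an inner membrane protein that is neither a protease nor a chaperone. Ghitm differed by -0.23 on chow (adjusted p = 0.0251) and -0.10 on HFD (0.489). Dnaja3, a partner of Hspa9, averaged -0.15 (0.0425), while Trap1, the mitochondrial Hsp90, averaged -0.11 (0.135) and the protease Htra2 -0.14 (0.141). None of the 6 cytosolic chaperones that hand precursors to the TOM complex passed in a genotype comparison. Over both diets Dnaja4 differed by 0.08, Stip1 by 0.07, Hsp90aa1 by 0.04 and Dnaja2 by -0.03.

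Promoters were read from RefSeq (mouse build GRCm38.p6), as windows of 300 bases around each start site that lie mostly before it, for 34 of the 39 members. The missing members were Afg3l2, Hspa9, Timm21, Tomm40l and Tomm7. Motifs of factors that PGC-1α is known to work with were searched on both strands, and a match is only a description of letters. CCGGAAG, the core bound by ETS factors such as GABP, was in 17 of 34 member promoters (50.0%), against 9.93% of all 27025 genes and 12.95% of 17492 protein-coding genes in the table. AANATGGCG, for YY1, was in 5 (14.71%), against 2.76% and 3.64%. TNAAGGTCA, for oestrogen-related receptors, was in 1 (2.94%), against 1.43% and 1.2%. The palindromic NRF1 element was in none (0%), against 1.07% and 1.47%. These comparison shares take in genes of any expression level, and no share was taken among brighter genes. The members are mostly bright, with 35 of 39 above the median value of all genes. Of the 5 members with a promoter that fell over both diets, CCGGAAG was in 2 (Timm23 and Mtx2), and of the other 29 it was in 15. The stretches that hold the matches are shown for the called members and for Timm8b, the member with the receptor element, with the matches on either strand in capitals; the first 3 run from before to after the start site and that of Timm8b lies before it.
Timm23, chr14:32201852-32201951, minus strand: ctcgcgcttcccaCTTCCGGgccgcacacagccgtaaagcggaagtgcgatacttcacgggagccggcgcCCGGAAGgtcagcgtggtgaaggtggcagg
Mtx2, chr2:74825752-74825851, plus strand: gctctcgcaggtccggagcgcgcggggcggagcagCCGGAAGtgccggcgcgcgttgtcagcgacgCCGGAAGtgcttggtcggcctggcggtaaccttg
Samm50, chr15:84192205-84192279, plus strand: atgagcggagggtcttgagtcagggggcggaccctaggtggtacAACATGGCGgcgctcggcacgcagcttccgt
Timm8b, chr9:50603771-50603870, plus strand: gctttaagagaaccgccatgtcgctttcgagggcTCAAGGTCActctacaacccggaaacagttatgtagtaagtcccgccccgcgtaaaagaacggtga

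Timm23 and Mtx2 hold CCGGAAG on each side of the start site, and Samm50 holds the YY1 letters just after it. Timm8b, with the receptor element, differed by -0.06 on chow and -0.03 on HFD and did not pass. The windows of Hspd1 and Hspe1 share 285 bases on opposite strands, so their matches are counted for both genes.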

How the data were processed

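The authors deposited normalized log2 expression values for 41345 probe sets on 16 arrays. Partek is named in the submitters' processing notes, and no source used here states the background correction or the normalization. Their range, 2.07 to 13.8, gave the log2 scale. The number of arrays limits the precision, and signal over background is not known. Probe sets were named from the platform annotation: 23521 carry 1 symbol, 1820 several and 16004 none. The brightest single-symbol probe set stood for each of 22180 genes (1082 genes have several), with no filter on level.

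A model with 4 group means was fitted in limma 3.58.1 in R 4.3.3 (lmFit, eBayes), and p-values were adjusted by Benjamini-Hochberg over all genes. The fit was also run on simulated data with independent noise for each gene and no array effects. No result here rests on that run. Groups came from the labels. Members and lists were chosen with earlier results of these data known. Values of each array were given for members past an adjusted p of 0.05 in any comparison (up to 12), and up to 4 genes of each further list were named by the smallest p over both diets. Tomm40 and Timm10b were added after their values were seen. Alternatives were quantile normalization, median centring, brighter genes alone, probe sets averaged for each gene, a trended robust prior, the arrays of the 2 groups alone, the methods' t-test, the study's thresholds, a replicate block and leaving out each array. The methods' t-test was adjusted over all genes, and the study's thresholds were applied to the unadjusted p-values of limma. Same-numbered arrays were not shown to be pairs.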

Additional observations from a re-analysis of the deposited data

Results flagged for a closer look

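Of 28 groups of 4 arrays checked among the 7 called genes, 1 held a value far from the rest, where about 1 in 20 groups would by chance. Afg3l2 in HFD NiPKO replicate 4 read 9.06, against 8.93 to 8.95 in the other HFD NiPKO arrays. The gap was 0.894 of the group's range, above Dixon's critical value. That array was still below every CTRL array.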

How the results depend on the processing

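No called difference changed sign under any alternative, but counts of called members moved. On chow 3 of 39 members were called. With brighter genes alone it was 7 of 35, with the trended robust prior 6 and with the arrays of the 2 groups alone 1. Lower calls over all genes moved in the same direction. They were 216 of 22180, then 356 of the 11090 brighter genes, and 294 and 54 of all genes. On HFD 2 were called. Median centring gave 1, the 2 groups alone 0 and the methods' t-test, adjusted over all genes, 0. Over all genes lower calls were 132, then 102, 28 and 8. Over both diets 7 were called. Brighter genes alone gave 11 of 35 and the study's thresholds 3. Lower calls over all genes were 406, then 544 of the 11090 brighter genes, and 270 by the study's thresholds. By the study's thresholds 2 members were called for diet in NiPKO and 1 for the interaction, where the adjusted test gave 0. Leaving out each array gave 2 to 4 on chow, 1 to 2 on HFD, 5 to 7 over both diets and 0 in every fit for each diet comparison and the interaction. The median interaction of the members was 0.02 and, after quantile normalization, -0.02. Of 274 alternative values for the 12 genotype calls, 206 kept the call and 68 lost it.

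Same-numbered arrays shared only a number: their deviations correlated at -0.11 to 0.17 over 24 pairs, and 8 matched their own number best. With the replicate number as a block, 2 members were called on chow, 1 on HFD and 5 over both diets; those lost were Timm23 on chow, Samm50 on HFD, and Oma1 and Hspa9 over both. Over both diets Oma1 was also lost with median centring and Hspa9 with quantile normalization. With 4 arrays a group, a member that missed the threshold is not shown to be unchanged.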
